A study of Rattus norvegicus with 8 samples.

Results

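The renin-angiotensin-aldosterone genes described here are 7 genes of the 19238 in the gene table of a rat aorta study, taken as the rows whose gene name is Agt, Ace, Agtr1a, Agtr1b, Agtr2, Nr3c2 or Enpep. All 7 were found, and 6 had enough reads to be tested, Agtr1b being the exception. Thoracic aorta RNA gave 4 GK libraries and 4 control Wistar libraries, each set numbered 7 to 10, from rats aged 7 to 8 weeks. GK (Goto-Kakizaki) rats are a non-obese inbred line with inherited type 2 diabetes, derived from Wistar rats, and the labels put them in a diabetic macroangiopathy group. Control libraries carry the strain label Wistar and the group label control, and no treatment is given for either set. Strain and diabetes divide these libraries in the same way and cannot be told apart. The labels do not say whether each library is a different animal, so the p-values measure only the spread between these libraries.

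In this hormone system, renin releases angiotensin I from angiotensinogen, and angiotensin-converting enzyme turns it into angiotensin II. Angiotensin II contracts arterial smooth muscle and stimulates aldosterone secretion through type 1 receptors, whereas the type 2 receptor, abundant in fetal tissue, opposes many of these actions. Aldosterone acts through the mineralocorticoid receptor, a nuclear receptor that switches on genes of sodium transport and is also present in vascular cells. Renin itself is not analysed here.

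Gene counts summed to between 13188728 and 16266151 in the GK libraries and between 11760397 and 13466170 in the control libraries. Levels are given as CPM (counts scaled by library total and TMM factor) and, wherever genes are compared with each other, as the authors' FPKM, which also divides by gene length. The smooth muscle markers Myh11, Acta2 and Tagln were present in all 8 libraries, and markers of perivascular fat were abundant in all of them. GK 9 stood apart, with 15192 summed CPM of skeletal muscle and cardiomyocyte markers against 27.2 to 2041 in the other GK libraries and 43.9 to 532 in the control libraries. Mitochondrial genes held 14.7% of counts in GK 9 and 23% to 31.6% in the other GK libraries. They held 8.27% in control 9 and 18% to 27.4% in the other control libraries. Summed nerve and Schwann cell markers were the highest of their groups in GK 9 (1781 CPM) and control 9 (779 CPM).

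Among the tested members, 6 of 6 had lower fitted levels in GK aortas, and 1 of them, Ace, passed the test (edgeR quasi-likelihood, Benjamini-Hochberg adjusted p under 0.05). Over all 13673 genes tested, 7.28% passed and 3.31% passed as lower in GK. Agtr1b, too low in counts to be tested, had a higher mean in GK (0.835 CPM) than in control (0.383 CPM), with overlapping groups. The sign of Enpep, at -0.10 ± 0.31 (SE), turned in 2 of the 13 alternatives run. The shared direction therefore holds only for the members kept by the filter on low counts, and only in the main fit for Enpep. No member was called higher, by edgeR or by DESeq2, and DESeq2 called 3 members lower, where it called 18.5% of all genes. At an unadjusted edgeR p under 0.05, 3 of the 6 were lower (Agt, Ace and Agtr2) and 0 were higher, beside 27.6% of all genes in either direction. The median log2 fold change (GK over control) of the 6 tested members was -0.65, beside 0.00 for all genes tested. CPM of the 2 groups did not overlap for 1 member, Ace, and for 15.6% of all genes tested, 7.64% being those with every GK library below every control library.

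**Figure D1:**
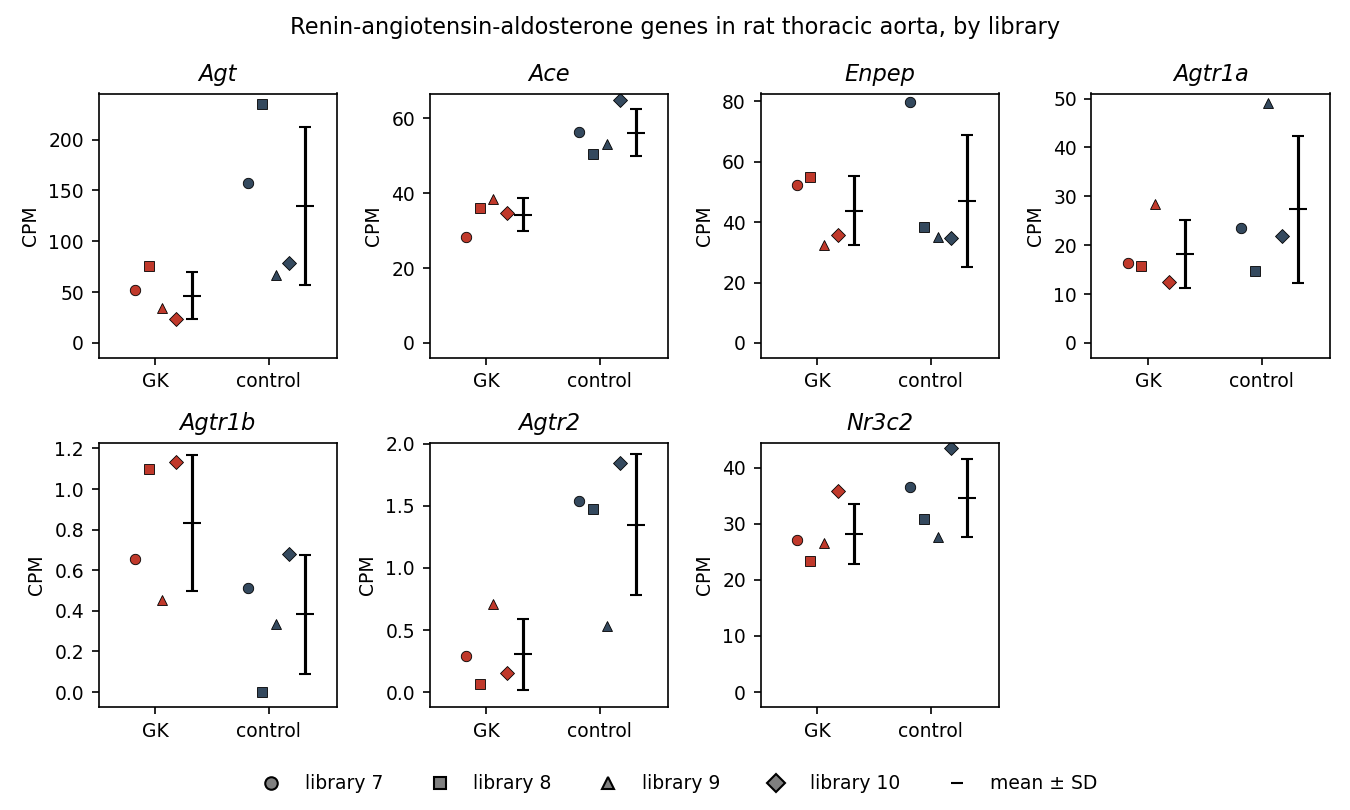
CPM of each gene (vertical axis, starting at about 0 in every panel) in the 4 GK and the 4 control libraries. Each symbol is 1 library, its shape gives the library number, and bars are mean ± SD; the groups are apart for Ace, whereas single libraries bring them together for Agt and Agtr2.

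Agt encodes angiotensinogen, the precursor of all angiotensins, made mainly in liver and also in fat and vessel wall. The gene lies at chr19:57321640-57333433 in the files' coordinates. It was measured at 52.0, 76.1, 34.3 and 23.3 CPM in GK 7, 8, 9 and 10, against 157, 235, 67.2 and 78.7 CPM in control 7, 8, 9 and 10. The only overlap was between GK 8, the highest GK library, and control 9, the lowest control library. The means were 46.4 ± 23.0 CPM in GK aortas and 134 ± 77.9 CPM in control aortas (SD, n = 4 each), a log2 fold change of -1.53 ± 0.48 (SE) with an unadjusted p of 0.0121. With adjustment over all genes Agt did not pass (edgeR adjusted p = 0.0873). DESeq2 gave an adjusted p of 0.0157, and over all 13 alternatives run the adjusted p went from 0.00658 to 0.184.

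Whether the groups overlap depended on the scaling. In FPKM, which carries no TMM factor, GK 8 lay below control 9, a shift that all genes of these libraries share, and the groups were apart for Agt and for 12.9% of all genes tested (7.23% as lower in GK). The GK libraries had 22.7, 38.2, 20.8 and 9.97 FPKM, against 82.1, 112, 43.0 and 44.5 FPKM in the control libraries. In the authors' deposited table Agt is called DOWN, with a log2 fold change of -1.62 and a q-value of 0.0128, and it is the only member called there. That table calls 5.4% of its genes.

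Markers of fat summed to more in every GK library than in any control library, unlike Agt. The 12 general adipocyte markers summed to 13271 to 30316 CPM in GK libraries and 8235 to 12937 CPM in control libraries, and 4 of the 12 were called higher with 0 lower. DESeq2 called 6 higher and 1 lower, and their edgeR log2 fold changes ran from -1.92 to 1.81. Fibroblast markers summed to 919 to 2918 CPM in GK libraries and 1685 to 4737 CPM in control libraries, with 2 of 10 called lower and 0 higher. In bulk tissue, fewer cells of a type and less RNA per cell cannot be told apart. Set against the mean of the adipocyte markers within the same library, Agt stood at -3.92, -3.42, -4.03 and -5.21 log2 units in GK 7, 8, 9 and 10 and at -1.68, -1.25, -2.89 and -2.17 in control 7, 8, 9 and 10. Every GK library lay below every control library on this measure. The difference of the means, -4.15 ± 0.76 in GK and -1.999 ± 0.70 in control (SD, n = 4 each), was -2.15 log2 units, with an exact two-sided permutation p of 0.0286, the smallest that 4 against 4 allows, and 0.0429 after adjustment over the 3 relations of this kind. Without GK 10 the difference was -1.79 and its adjusted exact permutation p was 0.0857. The marker mean alone was apart between the groups, higher in GK, and Agt alone overlapped only for GK 8 and control 9. Separation on this measure was therefore nearly set in advance, and its p is no separate support.

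Ace encodes the converting enzyme itself, a peptidase anchored on the surface of endothelial cells that also breaks down bradykinin. It lies at chr10:94170789-94206535. Its level was 28.2, 36.0, 38.4 and 34.7 CPM in GK 7, 8, 9 and 10, against 56.3, 50.4, 53.3 and 64.8 CPM in control 7, 8, 9 and 10. The highest GK library (GK 9) was below the lowest control library (control 8), and the groups did not overlap in FPKM either. In FPKM it stood at 3.62, 5.32, 6.86 and 4.35 in GK 7, 8, 9 and 10, and at 8.66, 7.05, 10.03 and 10.8 in control 7, 8, 9 and 10. The control library nearest to the GK range was again control 8. Ace fell to 34.3 ± 4.33 CPM in GK aortas, against 56.2 ± 6.24 CPM in control aortas (SD, n = 4 each), with a log2 fold change of -0.71 ± 0.13 (SE) and an edgeR adjusted p of 0.0233. Of the 6 tested members it had the smallest SE.

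The size of the Ace difference varied little when single libraries were left out, with log2 fold changes from -0.76 to -0.63. Its call was lost without GK 7 (edgeR adjusted p = 0.0717), without GK 8 (0.0810), without GK 10 (0.0647) and without control 10 (0.0785). In the authors' deposited table Ace has a log2 fold change of -0.86 and a q-value of 0.0855 and is not called.

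Endothelial markers summed to more in every GK library than in any control library. The 9 of them summed to 1087 to 1328 CPM in GK libraries and 675 to 1056 CPM in control libraries, and 3 of 9 were called higher (Kdr, Sox17 and Nos3) with 0 lower. The markers did not move alike. Log2 fold changes of Vwf (-0.51), Erg (-0.11) and Tie1 (-0.02) were below 0, and those of Cdh5 (0.48), Emcn (0.33) and Tek (0.27) above it, none passing. Ace relative to the mean of these markers was -1.86, -1.28, -1.40 and -1.36 log2 units in GK 7, 8, 9 and 10, and -0.49, -0.18, -0.64 and -0.22 in control 7, 8, 9 and 10. No GK library reached the range of the control libraries. The means were -1.48 ± 0.26 in GK and -0.38 ± 0.22 in control (SD, n = 4 each), a difference of -1.09 log2 units with an exact two-sided permutation p of 0.0286 and an adjusted one of 0.0429. Ace and the marker mean were each apart between the groups already, in opposite directions. Their difference was bound to be apart too, so this p was set in advance and adds no separate support. With the list's median in place of its mean the difference was -0.73, close to the log2 fold change of -0.71 of Ace alone. Without GK 10 it was -1.13 with an exact permutation p of 0.0286 and an adjusted one of 0.0857, since the adjustment is shared with Agt, whose exact p was then 0.0571.

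**Figure D2:**
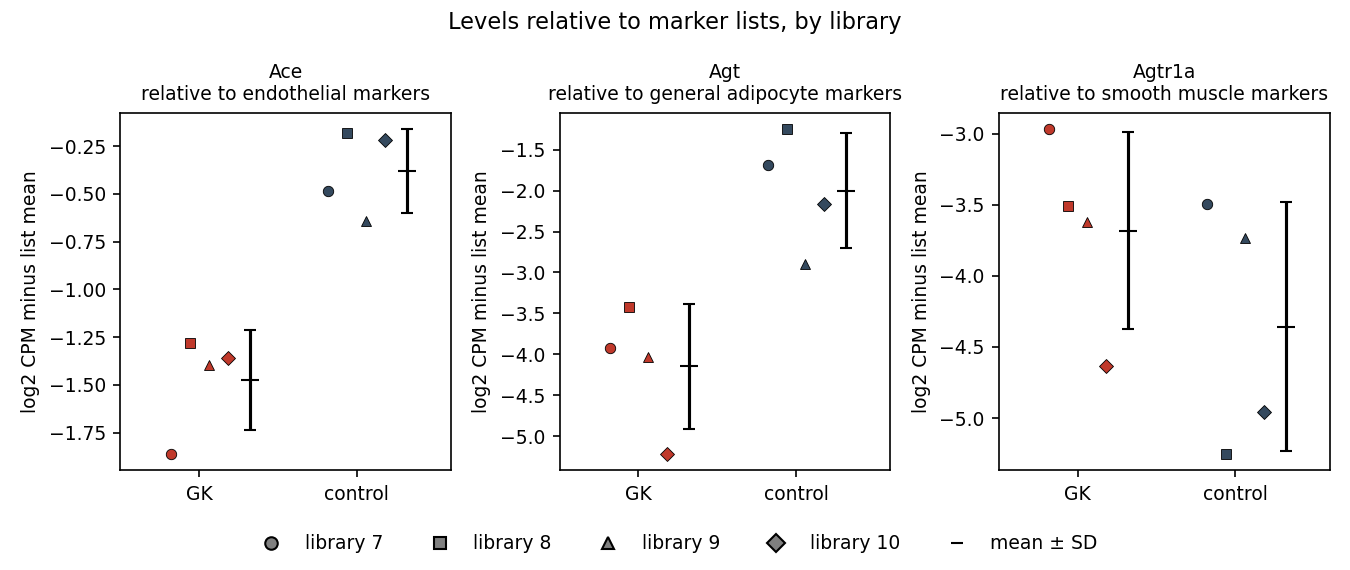
Log2 CPM of Ace, Agt and Agtr1a minus the mean log2 CPM of 9 endothelial, 12 general adipocyte and 10 contractile smooth muscle markers in the same library (vertical axes). Each symbol is 1 library and bars are mean ± SD; the groups are apart for Ace and Agt and overlap for Agtr1a.

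The promoter of Ace is printed because it is the member that passed the test. It covers the 250 bases before the gene's start in RefSeq (build GRCr8, chr10:91409879-91410128, plus strand), read 5′ to 3′, with matches to the GC box (GGGCGG or CCGCCC) and the TATA box (TATAAA or TTTATA) in capitals.
Ace: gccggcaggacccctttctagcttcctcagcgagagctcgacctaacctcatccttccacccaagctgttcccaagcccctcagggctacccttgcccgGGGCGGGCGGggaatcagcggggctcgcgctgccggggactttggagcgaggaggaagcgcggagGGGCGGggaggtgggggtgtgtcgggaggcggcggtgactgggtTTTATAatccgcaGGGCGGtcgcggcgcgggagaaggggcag
Its GC content is 69.2%, beside a median of 51.2% over the 33469 promoters of this length. It holds 4 GC boxes, the first 2 of which overlap, and 1 TATA box on the opposite strand. GC boxes are found in 30.5% of these promoters and TATA boxes in 12.9%. These are letter matches and no binding was measured here.

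Enpep encodes aminopeptidase A, which converts angiotensin II to angiotensin III. It lies at chr2:233667254-233743866. Its level was 52.4, 54.8, 32.3 and 35.7 CPM in GK 7, 8, 9 and 10, against 79.9, 38.5, 34.9 and 34.7 CPM in control 7, 8, 9 and 10. Control 7 was far above the rest, and the other control libraries lay inside the GK range. The means were 43.8 ± 11.4 CPM in GK and 47.0 ± 21.97 CPM in control (SD, n = 4 each), and the log2 fold change of -0.10 ± 0.31 (SE) did not pass (edgeR adjusted p = 0.856). Its sign depended on single libraries, with 0.29 without control 7 and 0.03 without GK 9.

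Agtr1a encodes the main type 1 angiotensin receptor of rodent vessels, and lies at chr17:35907108-35958077. It was measured at 16.28, 15.6, 28.4 and 12.4 CPM in GK 7, 8, 9 and 10, against 23.6, 14.7, 49.1 and 21.9 CPM in control 7, 8, 9 and 10. In each group the library numbered 9 was the highest, and the groups overlapped. The log2 fold change of -0.59 ± 0.39 (SE) did not pass (edgeR adjusted p = 0.359), and without control 9 it was -0.14. GK 9 and control 9 also had the highest summed fibroblast markers of their groups, 2918 CPM in GK 9 and 4737 CPM in control 9, and the part of these cells in the Agtr1a values was not tested.

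Contractile smooth muscle markers summed to 2659 to 7579 CPM in GK libraries and 5515 to 14911 CPM in control libraries, with 3 of 10 called lower (Itga8, Kcnmb1 and Lmod1) and 0 higher. Against the mean of these markers Agtr1a stood at -2.97, -3.51, -3.62 and -4.63 log2 units in GK 7, 8, 9 and 10 and at -3.49, -5.25, -3.73 and -4.96 in control 7, 8, 9 and 10. The groups overlapped, and the difference of 0.68 log2 units had an exact two-sided permutation p of 0.229, also 0.229 after adjustment.

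Agtr1b encodes the other rodent type 1 receptor, best known from adrenal and pituitary, at chr2:105149020-105224295. It had 9, 16, 7 and 15 counts in GK 7, 8, 9 and 10, and 7, 0, 5 and 10 counts in control 7, 8, 9 and 10. These counts were too few for the main test. The levels overlapped at 0.835 ± 0.335 CPM in GK and 0.383 ± 0.292 CPM in control (SD, n = 4 each), and without the filter on low counts the log2 fold change was 1.09 ± 0.76 (SE) with an edgeR adjusted p of 0.409, in a fit that called 3.4% of its genes. It was the only member whose mean was higher in GK than in control.

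Agtr1b made up 3.88%, 6.56%, 1.57% and 8.39% of the summed FPKM of the 2 type 1 receptors in GK 7, 8, 9 and 10, and 2.14%, 0%, 0.678% and 3.02% in control 7, 8, 9 and 10. Control 8 had 0 Agtr1b counts among 159 of the pair, which by counting error alone allows a share of up to 1.89% of counts (3 counts). The mean shares were 5.10% ± 2.99 in GK and 1.46% ± 1.37 in control (SD, n = 4 each), and the groups overlapped. The pair are close paralogs, so counting could have split reads between them, and this share is a description without a test.

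The promoters of this pair are printed because the paralogs differ so widely in level. They come from the same RefSeq table and build, Agtr1a at chr17:34435433-34435682 and Agtr1b at chr2:104849263-104849512, both on the minus strand, read 5′ to 3′ with the same capitals.
Agtr1a: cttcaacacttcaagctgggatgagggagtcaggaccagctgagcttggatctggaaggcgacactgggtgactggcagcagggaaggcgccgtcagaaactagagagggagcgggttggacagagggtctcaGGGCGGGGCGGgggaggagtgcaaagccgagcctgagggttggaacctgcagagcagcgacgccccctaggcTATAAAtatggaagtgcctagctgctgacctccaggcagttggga
Agtr1b: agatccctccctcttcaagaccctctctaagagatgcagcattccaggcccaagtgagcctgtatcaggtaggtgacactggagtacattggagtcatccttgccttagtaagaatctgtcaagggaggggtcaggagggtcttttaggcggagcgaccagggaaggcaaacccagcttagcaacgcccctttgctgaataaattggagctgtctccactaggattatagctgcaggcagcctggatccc
The Agtr1a window has a GC content of 60.8%, 2 overlapping GC boxes and 1 TATA box. The Agtr1b window has a GC content of 52.8% and no match to either motif. A motif of steroid receptor elements (AGAACA or TGTTCT, in 17.5% of promoters), was found in none of the 3 windows. Agt, Agtr2, Nr3c2 and Enpep are not shown as sequence.

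Agtr2 encodes the type 2 receptor, at chrX:119390013-119393842. It had 4, 1, 11 and 2 counts in GK 7, 8, 9 and 10, against 21, 16, 8 and 27 counts in control 7, 8, 9 and 10. Libraries 7, 8 and 10 were well apart between the groups, whereas GK 9 was above control 9. The means were 0.305 ± 0.285 CPM in GK and 1.35 ± 0.565 CPM in control (SD, n = 4 each), with a log2 fold change of -2.09 ± 0.65 (SE) and an unadjusted edgeR p of 0.0109. With adjustment over all genes it did not pass (edgeR adjusted p = 0.0832). Leaving out GK 9, the library rich in muscle markers, gave a log2 fold change of -2.91 with an edgeR adjusted p of 0.0170, in a fit that called 22.1% of all genes. The other 7 fits without 1 library gave -2.35 to -1.76 with edgeR adjusted p from 0.0851 to 0.207, and without the filter on low counts the adjusted p was 0.126.

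Nr3c2 encodes the mineralocorticoid receptor, at chr19:34448289-34752695. Its level was 27.1, 23.3, 26.5 and 35.8 CPM in GK 7, 8, 9 and 10, against 36.6, 30.9, 27.5 and 43.4 CPM in control 7, 8, 9 and 10. In each group library 10 was the highest, and the groups overlapped. The log2 fold change of -0.30 ± 0.19 (SE) did not pass (edgeR adjusted p = 0.335), and it was -0.17 without control 10 and -0.43 without GK 10. Within this locus lie 3 long noncoding transcripts, with 121 to 245 counts per library in GK and 100 to 367 in control, and their log2 fold changes of -0.17, -0.04 and -0.14 did not pass either, where 2.74% of the lncRNA table passed. Strand use in counting is not stated, so reads of Nr3c2 and of these transcripts cannot be told apart.

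**Figure D3:**
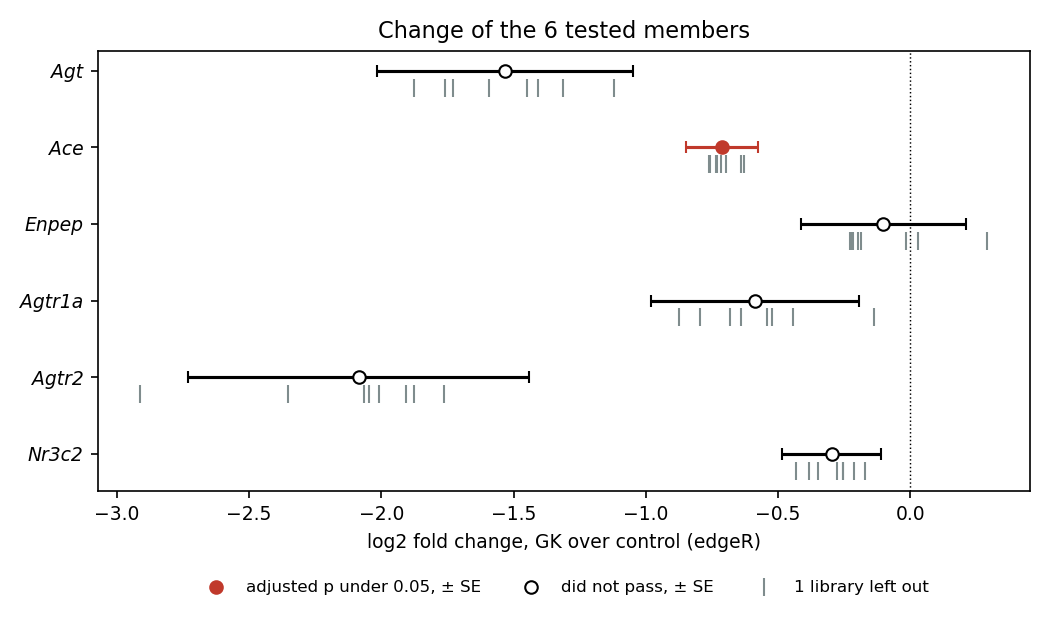
Log2 fold change (GK over control, horizontal axis) of the 6 tested genes by edgeR, with bars of ± 1 SE and a filled symbol where the adjusted p was under 0.05. Grey ticks give the 8 fits that each leave out 1 library; the ticks of Ace lie close together between -0.76 and -0.63, and those of Enpep fall on both sides of 0.

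Per length, Agt was the most abundant member in both groups. Its mean was 22.9 ± 11.6 FPKM in GK and 70.3 ± 33.0 FPKM in control (SD, n = 4 each). In GK aortas the order of mean FPKM ran Agt, Enpep, Nr3c2, Agtr1a, Ace, Agtr1b, Agtr2, and only the neighbours Ace and Agtr1b had ranges that did not overlap. In control aortas it ran Agt, Agtr1a, Nr3c2, Enpep, Ace, Agtr2, Agtr1b, and the ranges were apart between Agt and Agtr1a and between Ace and Agtr2. Agt overlapped with its next neighbour in GK because GK 10 had only 9.97 FPKM.

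The members did not share 1 pattern over the libraries. Library 8 was the highest of its group for Agt in both groups, library 9 for Agtr1a and library 10 for Nr3c2. As a measure of likeness, log2 CPM profiles over the 8 libraries were centred and compared by their root mean square difference with 11241 other genes. The profile nearest to Ace, whose own SD was 0.387, was Kdelc1 (0.0839), followed by Zeb1 (0.0946) and Crtc3 (0.100). Nearest to Agt, whose SD was 1.01, were Plin3 (0.408), Wnt11 (0.551) and Bmf (0.577). For Agtr1a the nearest were Adamts5 (0.170), Efhd1 (0.186) and Papss2 (0.187), for Agtr2 Itga11 (0.462), Zim1 (0.506) and Cit (0.538), for Nr3c2 Carf (0.109), Ccdc28a (0.113) and Amt (0.121), and for Enpep Zmynd10 (0.172), Slc26a11 (0.179) and Rab11fip1 (0.209).

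Around the members, 5 lists hold 84 other genes of the system and its targets, of which 79 were found and 71 tested. By edgeR 5 were higher in GK aortas, 2 were lower and 64 did not pass, with a median log2 fold change of 0.01 beside 0.00 for all genes. The 5 of 71 called higher stand beside 3.96% of all genes tested, and the 2 of 71 called lower beside 3.31%. Without GK 9 there were 17 calls in these lists, in the fit that called 22.1% of all genes, and with 1 other library left out between 1 and 4.

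In the list of renin and other angiotensin peptidases, which also holds the prorenin receptor Atp6ap2, 1 of 14 tested genes was called, Prep (prolyl endopeptidase), at 66.1 ± 15.7 CPM in GK and 36.5 ± 6.23 CPM in control with a log2 fold change of 0.86 ± 0.21 (SE, edgeR adjusted p = 0.0468). Its call was lost in 7 of the 8 fits without 1 library, all but that without GK 9, with edgeR adjusted p from 0.0628 to 0.141, and also without the filter on low counts (0.0656). Ctsd (cathepsin D), the peptidase with the highest FPKM, had a log2 fold change of 0.70 ± 0.32 that did not pass (edgeR adjusted p = 0.200), and without GK 9 it was called at 0.93 (adjusted p = 0.0383). Mme (neprilysin, a membrane peptidase that degrades angiotensins, chosen after its values were seen) had 384, 362, 116 and 308 CPM in GK against 160, 108, 86.4 and 92.3 CPM in control, with GK 9 inside the control range (1.39 ± 0.37, edgeR adjusted p = 0.0582). In the authors' deposited table Mme is called UP, with a q-value of 0.00711.

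Of 18 other receptors and receptor partners 1 was called, Rgs2, a brake on signalling from angiotensin receptors. It was measured at 69.996, 45.3, 37.1 and 73.6 CPM in GK 7, 8, 9 and 10, against 292, 224, 76.1 and 151 CPM in control 7, 8, 9 and 10. Every GK library was below every control library, and control 9 was the nearest. Its log2 fold change was -1.72 ± 0.41 (SE, edgeR adjusted p = 0.0438), and the call was lost in 6 fits without 1 library, all but those without GK 9 or control 9, with edgeR adjusted p from 0.0799 to 0.134, and without the filter on low counts (0.0584). Rgs5, a related pericyte gene, was at 141 ± 44.0 CPM in GK and 153 ± 66.4 CPM in control and did not pass (edgeR adjusted p = 0.835). Agtrap, which drives internalisation of the type 1 receptor and was chosen after its values were seen, was at -0.59 ± 0.16 on the log2 scale (edgeR adjusted p = 0.0556).

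Of 11 genes of aldosterone synthesis and receptor partners 1 was called, the coactivator Ncoa1, at 248 ± 67.6 CPM in GK and 134 ± 18.3 CPM in control (log2 fold change 0.89 ± 0.22, edgeR adjusted p = 0.0486). Its call too was lost in the 7 fits that kept GK 9 and left out another library, with edgeR adjusted p from 0.0721 to 0.146, and without the filter on low counts (0.0670). The receptor chaperone Hsp90ab1 was at 1053 ± 142 CPM in GK and 905 ± 157 CPM in control and did not pass (edgeR adjusted p = 0.516). Cyp11b2, the aldosterone synthase, chosen after its values were seen, had 7 counts in GK 9, 0 in the other GK libraries and 0 in all control libraries and was not tested.

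The mineralocorticoid-responsive list, 15 tested genes that include targets of the Nr3c2 receptor, had 3 genes called higher and 1 lower. Over all genes tested, 3.96% were called higher and 3.31% lower. The list's median log2 fold change was 0.50, beside 0.00 for all genes tested. Atp1b1, the sodium pump's beta subunit, was measured at 119, 112, 99.3 and 74.2 CPM in GK 7, 8, 9 and 10, against 22.7, 19.2, 13.7 and 14.7 CPM in control 7, 8, 9 and 10. The groups were far apart, with a log2 fold change of 2.52 ± 0.22 (SE, edgeR adjusted p = 0.00200), and the call held under all 13 alternatives run. Sgk1, a kinase that prolongs sodium channel activity, was at 62.8, 49.8, 63.0 and 88.0 CPM in GK and 16.7, 27.4, 35.4 and 34.7 CPM in control, also without overlap (1.21 ± 0.26, edgeR adjusted p = 0.0340). Scnn1b, the beta subunit of the epithelial sodium channel, chosen after its values were seen, stood the other way, with 1, 4, 8 and 0 counts in GK 7, 8, 9 and 10, against 16, 10, 41 and 24 counts in control 7, 8, 9 and 10. Its groups did not overlap, and its log2 fold change of -2.82 ± 0.74 did not pass (edgeR adjusted p = 0.0551), whereas DESeq2 called it lower.

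Per1, a clock gene, rose to 109 ± 28.0 CPM in GK, against 53.5 ± 9.61 CPM in control (log2 fold change 1.02 ± 0.20, edgeR adjusted p = 0.0268). Rasl12 fell to 42.9 ± 16.6 CPM in GK, against 126 ± 21.0 CPM in control (-1.55 ± 0.29, edgeR adjusted p = 0.0222). The Sgk1 call was lost without GK 7, GK 8, GK 10, control 8 or control 10 (edgeR adjusted p 0.0699 to 0.0908). That of Per1 was lost without GK 7, GK 8, GK 10, control 7, control 9 or control 10 (0.0573 to 0.0935), and that of Rasl12 without GK 8 or control 10 (0.0747 and 0.0838). As background, glucocorticoids also raise Sgk1 and Per1. Fkbp5 and Tsc22d3, in these lists and also raised by them, were lower in GK and did not pass. Fkbp5 was at -0.88 ± 0.28 (edgeR adjusted p = 0.0906) and Tsc22d3 at -0.37 ± 0.22 (edgeR adjusted p = 0.311). Zbtb16 at 0.54 ± 0.25 (edgeR adjusted p = 0.192) and Errfi1 at 0.50 ± 0.39 (edgeR adjusted p = 0.425), of the mineralocorticoid-responsive list, were higher and did not pass. All were named after their values were seen, and the part of glucocorticoids was not tested. The summed general adipocyte markers, given above, were also higher in GK aortas, and their part in these values was not tested.

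Among 13 angiotensin II-responsive genes, edgeR called 0, beside 7.28% of all genes tested. DESeq2 called 1, which was lower in GK, beside 18.5% of all genes. An unadjusted edgeR p under 0.05 was found for 2 of the 13, both lower, beside 27.6% of all genes in either direction. The median log2 fold change of the 13 was -0.12, beside 0.00 for all genes tested. The matricellular genes Ccn2 (listed as Ctgf) and Ccn1 (listed as Cyr61) varied more within groups than between them. Ccn2 was at 254 ± 129 CPM in GK and 264 ± 242 CPM in control (edgeR adjusted p = 0.968), and Ccn1 at 227 ± 192 CPM in GK and 202 ± 197 CPM in control (edgeR adjusted p = 0.927).

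**Figure D4:**
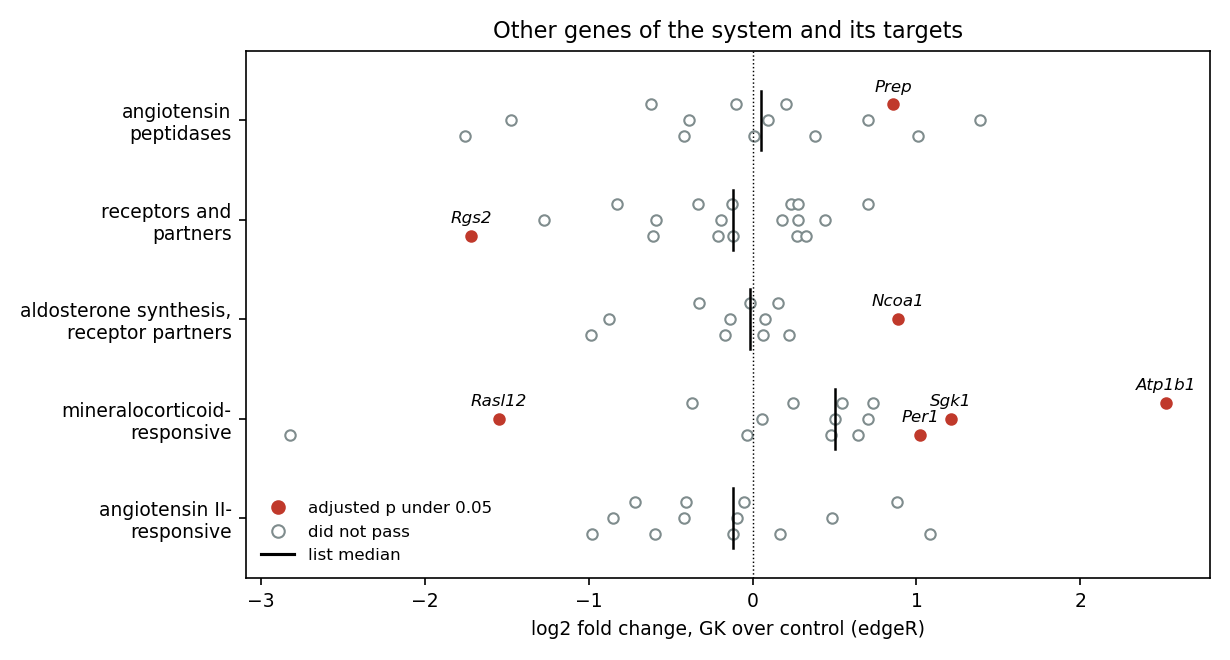
Log2 fold change (GK over control, horizontal axis) of each tested gene in the 5 lists around the members, with genes at an edgeR adjusted p under 0.05 filled and named and the list medians as vertical bars. Named genes lie on both sides of 0, Atp1b1 is the farthest to the right at 2.52, and the angiotensin II-responsive list has no filled symbol.

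The authors' deposited enrichment tables count the called genes of each KEGG pathway. Their renin-angiotensin system pathway holds 2 called genes of 28, Mme higher and Agt lower in GK, or 7.14%, beside 5.6% of the 7055 genes annotated to any pathway. Aldosterone-regulated sodium reabsorption holds 5 of 39 in the authors' deposited table (12.8%), of which 2 were higher in GK (Sgk1 and Atp1b1) and 3 lower. In the authors' deposited table, aldosterone synthesis and secretion holds 10 of 76 (13.2%), 6 higher and 4 lower, and renin secretion 8 of 63 (12.7%), with Agt among the 6 lower ones.

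For the members not yet given, the authors' deposited table has log2 fold changes (GK over control) of -2.14 for Agtr2, -0.75 for Agtr1a, 0.88 for Agtr1b, -0.47 for Nr3c2 and -0.26 for Enpep. The authors' deposited table gives Agtr2 the lowest q-value of these, 0.0864, and the others q-values from 0.475 to 0.973, and calls none of the 5. Each sign is that of the log2 fold change computed from the counts, Agtr1b being the only one above 0.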

How the data were processed

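Raw counts for genes and for lncRNA transcripts were deposited by the authors, with FPKM per library and as group means, log2 fold changes of those means, and p-values and q-values from edgeR, all per the file headers, with no edgeR version given. The percent and count columns of the enrichment tables were not recomputed. The submitters' processing notes name Bowtie 0.12.2 and, for mouse, mm8 and mm9, without their roles. For the rat coordinates a build is not given in the sources that were used here, and they stand as the files give them. Samples were grouped by title, strain and group label. The source name, GK for every sample, was not used.

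From the counts, edgeR 4.0.16 (R 4.3.3) gave CPM (library total times TMM factor), log2 fold changes and tests, with filterByExpr, TMM, glmQLFit, glmQLFTest and a design of group alone, Benjamini-Hochberg adjustment over all 13673 genes kept and a threshold of 0.05. SE was obtained by dividing the log2 fold change by the square root of F. TMM factors ran from 0.826 to 1.18 in GK libraries and 0.92 to 1.24 in control libraries. FPKM entered no test; it served to compare genes, to check the overlap of groups for Agt and Ace, for the receptor share and to look for single libraries apart from their group. Relative levels used log2 CPM with a prior count of 2 and exact two-sided permutation tests. Alternatives were RLE factors, no filter on low counts, DESeq2 1.42.0, a replicate block and leaving out libraries.

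The members, the pathway and marker lists and the tests were chosen with earlier results of these data known. Of each pathway list the text names every gene called (at most 5) and, where fewer than 2 were called, those with the highest FPKM up to 2; others are said to be chosen after their values were seen. Of 204 list symbols, 2 were matched through synonyms, 8 had no matched row, and 2 lay on more than 1 row, of which that with the most counts was used. Promoter sequences are from RefSeq.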

Additional observations from a re-analysis of the deposited data

Results flagged for a closer look

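Of 46 groups of 4 libraries checked, 2 had a library far from the other libraries of its group, and chance gives about 1 in 20. Hsp90ab1 had 244 FPKM in GK 10 and 316 to 326 FPKM in the other GK libraries. Per1 had 43.5 FPKM in GK 9 and 18.7 to 22.3 FPKM in the other GK libraries.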

How the results depend on the processing

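Genes called numbered 995. They numbered 654 without the filter, 2489 with DESeq2, 2372 with the replicate block, 2534 without both libraries numbered 9 (520 without control 9, 3046 without GK 9) and 135 (without control 10) to 3046 when 1 library was left out. Members called numbered 1 (Ace). They numbered 3 with DESeq2 (Agt, Ace and Agtr2), 2 with the replicate block (Agt and Ace), 2 without both libraries numbered 9 (Ace and Agtr2) and 0 to 2 with 1 library left out. Other pathway genes called numbered 7. They numbered 4 without the filter, 17 with DESeq2, 18 with the replicate block, 15 without both libraries numbered 9 and 1 to 17 with 1 library left out.

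The labels do not say whether the library numbers pair the samples, and correlations between libraries cannot settle it. Deviations from the group means of same-numbered libraries correlated at 0.417 (7), 0.0679 (8), 0.545 (9) and 0.0248 (10) over 13673 genes. GK 7 and GK 9 correlated best with their own number, whereas GK 8 and GK 10 correlated better with another. RLE factors called 983 genes, and the median of all genes moved by less than 0.1 (log2) under every setting.

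Directions turned for Enpep (0.03 without GK 9, 0.29 without control 7; -0.23 to 0.29 with 1 library left out), Rgs5 (0.00 without GK 10, 0.22 without control 9; -0.34 to 0.22), Ccn2 (0.38 with the block, 0.18 without GK 7, 0.05 without GK 8, 0.76 without control 9, 0.70 without both 9s; -0.40 to 0.76) and Ccn1 (-0.48 without GK 10, -0.19 without control 7, -0.14 without control 8; -0.48 to 0.85). None of these was called. Leaving out 1 library gave -1.18 to -0.97 for Ace relative to endothelial markers, -2.45 to -1.79 for Agt relative to adipocyte markers, 0.38 to 0.99 for Agtr1a relative to smooth muscle markers and 2.54 to 4.82 percentage points for the Agtr1b share. For the 6 tested members, 67 of 78 alternative values kept direction and side of the threshold, 4 lost a call, 5 gained one and 2 turned. The cause was not tested. The lncRNAs paired with a member were not run, since 0 of 17441 deposited pairs name one; those overlapping a member, an alternative added after seeing the data, gave 0 calls in every setting. With 18 counts over the GK libraries, depth limits Agtr2, as it does Agtr1b with 47.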
